A study of Mus musculus with 6 samples.

Results

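The baseline described here is the RNA of sorted mouse photoreceptors that received a control guide. It comprises 3 libraries, each titled as a control, of the 6 samples in the series. The samples were chosen by their labelled treatment alone, and no value of a library that received the Nr2e3 guide enters any result. The gene lists, however, were chosen with earlier results of these data known. The mice were Rosa26-Cas9, a line in which every cell carries the Cas9 nuclease, so the controls carry Cas9 as well. Both eyes of each animal had received a non-targeting guide under the retina in an adeno-associated virus with the 7m8 coat, whose human GRK1 promoter drives the red protein mCherry in photoreceptors. The age at injection is postnatal day 21 in one label and 4 weeks in another. At 6 months after injection, both retinas of 1 animal were dissociated with papain, and about 100000 mCherry-positive cells were sorted for each library. All 3 control animals are labelled male. The libraries therefore come from separate animals, treated with virus and enzyme and sorted, and no uninjected or unsorted retina stands beside them.

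Rods, by far the more numerous photoreceptors of the mouse, detect single photons in dim light, and cones serve daylight and colour. In both, light activates a visual pigment in the outer segment, the pigment activates the G protein transducin, transducin releases the inhibition of a cyclic GMP phosphodiesterase, and the fall of cyclic GMP closes a cation channel. Rods and cones use separate genes for most of these steps, which makes the ratio of the paired genes readable in RNA. The nuclear receptor NR2E3 works with the transcription factors NRL and CRX to turn rod genes on and to hold cone genes down.

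The markers of the labelled cell type were among the abundant genes. Gnat1 encodes the alpha subunit of rod transducin and lies on chromosome 9 (107674437 to 107679634, GRCm38). It stood at 33645, 33933 and 37570 CPM (counts scaled to a total of 1e6 gene counts) in replicates 1, 2 and 3, rank 4 of all genes. Sag encodes rod arrestin, which shuts off the activated pigment, and lies on chromosome 1 (87798143 to 87845158). It stood at 35626, 35558 and 33566 CPM, rank 5. Nrl, the rod-determining transcription factor on chromosome 14 (55518978 to 55524981), stood at 312, 349 and 280 CPM, rank 338. The 3 libraries lay close together for all 3 markers. Nr2e3 (chromosome 9, 59942771 to 59960834) stood at 1695, 1608 and 1645 CPM, 1649 ± 43.7 (SD, n = 3), rank 47.

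Depth was alike, at 32626751, 33903752 and 34286248 gene counts, so that 3 counts, the limit that a count of 0 allows, equal 0.0919, 0.0885 and 0.0875 CPM. These limits, and the binomial intervals given for shares, describe counting error alone, as no molecular identifiers were used. A count was found for 23337 to 23924 of 49997 genes per library, and 12431 genes reached 1 CPM in all 3. Xist was at 0.0306, 0 and 0 CPM and the Y-linked Ddx3y at 30.9, 31.9 and 36.7 CPM, as the label of male animals requires.

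Replicate 3 stood apart from the others across all genes. Across the 9608 genes with a mean of at least 5 CPM, log2(CPM + 0.5) correlated at r = 0.989 between replicates 1 and 2, at 0.895 between 1 and 3 and at 0.911 between 2 and 3. These are correlations across genes, which are not independent. Replicate 1 was at least 2-fold below both other controls for 61 genes (0.635%) and above both for 2 (0.0208%). Replicate 2 was below for 8 (0.0833%) and above for 9 (0.0937%), or for 6 above with TMM and 5 with DESeq2 scaling. Replicate 3 was at least 2-fold below both others for 331 genes (3.45%) and above both for 681 (7.09%). It was the lowest of the 3 libraries for 30.7% of these genes and the highest for 57.5%. The median gene lay 0.17 log2 units higher in replicate 3 than in the others, and TMM scaling reduced that shift to 0.03, with 41.6% of genes then lowest and 46.1% highest in it. With 3 libraries of 1 group no test was made. Each result below is given per library, and the shares of the lists furthest apart in replicate 3 are also given without it.

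A small set of genes filled a large part of each library. The 10 most abundant genes took 29.8, 28.4 and 25.2% of gene counts, 27.8 ± 2.39% (SD, n = 3), and the 30 most abundant took 39.2, 37.3 and 33.2%. At the other end, 69 genes exceeded 1000 CPM and 1170 exceeded 100 CPM in all 3 libraries. Of the 30 genes of highest mean level, 9 belonged to the 11 rod phototransduction genes or to other rod-enriched genes, 4 to phototransduction regulation shared by rods and cones, 5 to glycolysis and 2 to the mitochondrial messenger RNAs. None was a cone gene, and the first of those, the short-wavelength opsin Opn1sw, came at rank 39. These ranks are of counts and are not corrected for transcript length.

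**Figure D1:**
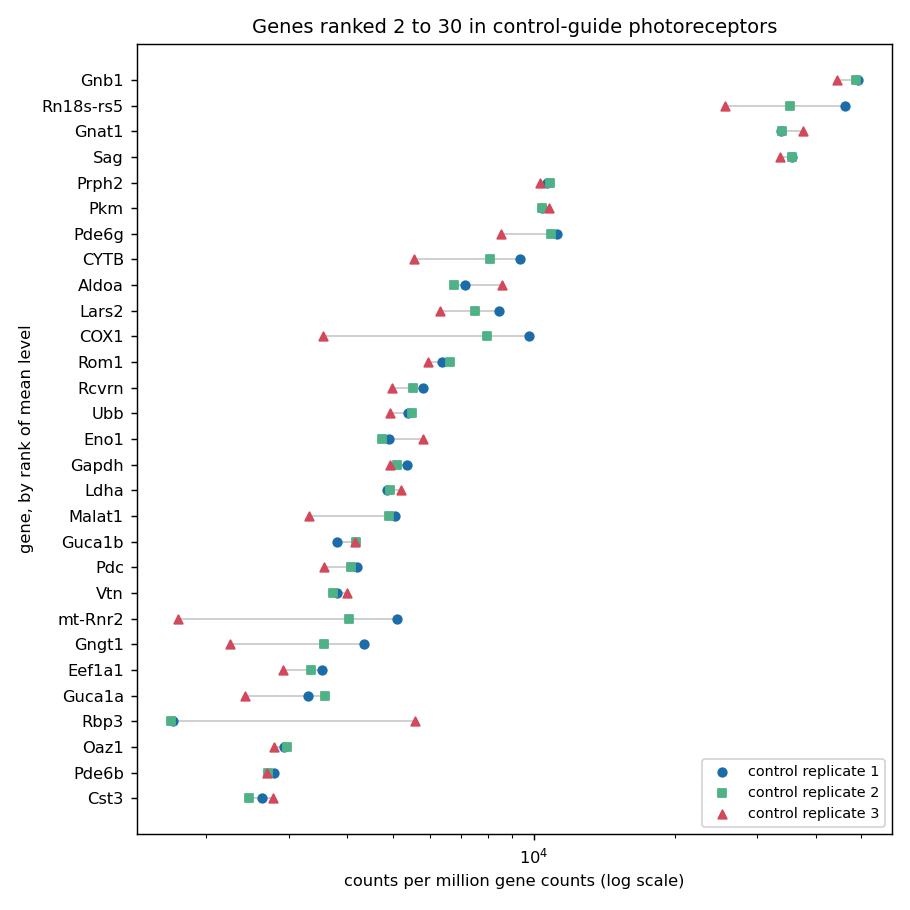
Level of the genes ranked 2 to 30 by mean level, in CPM on a log axis, with 1 point per control library and a grey line over their range. Most genes hold their place within a narrow range, while Rbp3, COX1, mt-Rnr2 and Gngt1 spread widely because replicate 3 departs from the others.

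Gnb1, the beta subunit of rod transducin, which other tissues also use in their G proteins, was the most abundant gene named here, at 49192, 48585 and 44306 CPM (rank 2). It was followed by Rn18s-rs5, a copy of the 18S ribosomal RNA, at 46180, 35148 and 25583 CPM, and by Gnat1 and Sag. Reads of ribosomal RNA can be assigned to any of its many copies, so this value is uncertain. Prph2, a tetraspanin that shapes the rim of the outer segment discs, stood at 10685, 10804 and 10293 CPM (rank 6). Its partner Rom1 stood at 6368, 6619 and 5958 CPM (rank 13). The SD of Prph2 was 267 CPM around 10594, so the structural gene of the discs was among the steadiest of the abundant transcripts.

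Promoters of abundant rod genes are shown because these genes share the transcription factors NRL, CRX and NR2E3, whose motifs can be looked for in them. Each of 3 motifs was searched on both strands of windows of 250 bases before the transcript starts of the RefSeq promoter table (GRCm38.p6). A gene with several windows counted as holding a motif if any of them did. Each gene whose window is described had 1 such start. That start need not be the first base of the gene, and for Sag the window lies inside the gene span given above. The motifs were TAATCC, a core recognised by CRX, TGCTGA, the core of the element bound by NRL, and AAGTCA, the site bound by NR2E3. Sequences are in lower case with the matched letters in capitals. They are shown for Sag and Pde6b, whose windows held no exon of GENCODE M21.

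Sag, chr1:87803430-87803679, plus strand: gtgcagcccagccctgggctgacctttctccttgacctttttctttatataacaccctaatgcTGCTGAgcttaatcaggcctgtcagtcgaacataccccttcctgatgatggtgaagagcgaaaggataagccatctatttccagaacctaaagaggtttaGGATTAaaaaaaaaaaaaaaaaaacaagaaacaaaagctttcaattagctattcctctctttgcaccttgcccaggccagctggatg
Pde6b, chr5:108388123-108388372, plus strand: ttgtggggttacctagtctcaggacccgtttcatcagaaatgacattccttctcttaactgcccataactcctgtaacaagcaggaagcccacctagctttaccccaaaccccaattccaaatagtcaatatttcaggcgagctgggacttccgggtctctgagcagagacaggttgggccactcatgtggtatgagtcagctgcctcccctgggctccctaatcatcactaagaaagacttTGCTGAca

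The Sag window held TGCTGA 187 to 182 bases before the start, and TAATCC as its reverse complement 87 to 82 bases before it. Pde6b had TGCTGA 8 to 3 bases before the start. No matches overlap in these windows. The window of Gnb1, not shown because it runs past the first base of the gene in RefSeq, held none of the 3 motifs. The window of Gngt1, not shown because GENCODE M21 annotates 216 of its bases as exon, held TAATCC as its reverse complement 44 to 39 bases before the start. TAATCC was in 4 of the 7 rod phototransduction genes with an entry and in 1 of 7 cone genes. It was in 7.21% of all 27025 genes with an entry and in 7.01% of those at 5 CPM or more. Counted by window, it was in 6.25% of 32851. Among the 100 most abundant genes, 69 had an entry, and 16 of these (23.2%) held TAATCC. The NRL core TGCTGA was in 2 of 7 rod genes, in 30.4% of these 69 abundant genes and in 18.0% of all genes with an entry. AAGTCA was in 0 of 7 rod genes, in 14.5% and in 14.8%, in the same order. A match is a description of letters and no evidence of binding.

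Rod phototransduction was the largest group of all lists, with all 11 members above 100 CPM. Together they took 22.7, 22.5 and 20.2% of gene counts, 21.8 ± 1.40% (SD, n = 3). In bulk samples such as these, fewer cells of a type and less RNA per cell cannot be told apart. Downstream of Gnat1 and Gnb1, the third transducin subunit, the gamma subunit Gngt1, stood at 4348, 3575 and 2245 CPM (rank 24). Replicate 3 was thus 1.76-fold below the mean of the others for Gngt1, the widest gap among the rod phototransduction genes described here.

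The phosphodiesterase that transducin activates has 2 catalytic subunits and an inhibitory one in rods. Pde6a and Pde6b, the catalytic subunits, stood at 1191, 1240 and 1282 CPM and at 2788, 2706 and 2690 CPM. Pde6g, the inhibitory subunit that transducin removes, stood at 11200, 10880 and 8519 CPM. Per kilobase of exon, Pde6g was at 4402 ± 632, Pde6b at 543 ± 10.4 and Pde6a at 264 ± 9.71 CPM per kilobase (SD, n = 3), so the messenger of the inhibitory subunit stood above those of both catalytic subunits in every library. On the same scale Gnat1 stood at 11571 ± 722 and Gnb1 at 11097 ± 624 CPM per kilobase, a difference within their spread.

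The cyclic GMP-gated channel of rods is built from Cnga1, at 1231, 1162 and 1052 CPM, and Cngb1, at 1390, 1479 and 1674 CPM. Slc24a1, the sodium, calcium and potassium exchanger that removes calcium from the rod outer segment, stood at 1480, 1621 and 1744 CPM. These channel and exchanger genes varied by less than 10% (SD over mean) between libraries. Over the 11 rod genes the median coefficient of variation was 7.86%, against 16.6% over all genes at 5 CPM or more. Replicate 3 was the lowest for 7 and the highest for 4 of them, none at least 2-fold apart from both others. Under TMM scaling these counts were 8 and 2, against 41.6 and 46.1% of all genes at 5 CPM or more.

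The other rod-enriched genes repeat that narrow spread. Their 11 members took 1.43, 1.45 and 1.39% of counts, with Rom1 and Vtn, the adhesive glycoprotein vitronectin (3802, 3722 and 3992 CPM), ahead of the rest. Susd3 stood at 698, 814 and 646 CPM. Nxnl1, from which photoreceptors make a survival factor for cones, stood at 398, 385 and 353 CPM, and Kcnj14, an inward-rectifier potassium channel, at 273, 282 and 260 CPM. Replicate 3 was lowest for 7 and highest for 3 of them, and 0 of the 11 were 2-fold apart, against 30.7 and 57.5% of all genes at 5 CPM or more that were lowest and highest in it.

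Genes that rods and cones share to regulate the response were also abundant. The list of 14 took 2.28, 2.34 and 2.17% of counts. Recoverin (Rcvrn), the calcium sensor that holds back the pigment kinase, stood at 5793, 5533 and 4975 CPM. Guca1b and Guca1a, the calcium sensors that activate guanylate cyclase, stood at 3803, 4168 and 4149 CPM and at 3295, 3584 and 2421 CPM. Phosducin (Pdc), which binds the beta and gamma subunits of transducin, stood at 4188, 4084 and 3566 CPM. Grk1, the pigment kinase whose human promoter drove the sorting marker, stood at 1270, 1362 and 1393 CPM and was similar in the 3 libraries. Unc119, a lipid-binding carrier of transducin, stood at 973, 1010 and 917 CPM. Gucy2e, a guanylate cyclase of the outer segment, stood at 140, 131 and 372 CPM, 2.75-fold higher in replicate 3 than the mean of the others and the 1 member of the list at least 2-fold apart. Rgs9bp, which anchors the regulator that ends the transducin signal, stood at 216, 282 and 389 CPM.

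Genes of the outer segment and its connecting cilium (25 members, 17 above 100 CPM) took 2.18, 2.21 and 2.38% of counts. Behind Prph2 came Cdhr1, a cadherin at the base of new discs (2026, 1906 and 2176 CPM), and Abca4, the flippase that clears retinoid from the discs (1364, 1366 and 1604 CPM). Rp1, a microtubule protein of the axoneme, stood at 1472, 1399 and 1103 CPM, Prom1, a disc rim protein, at 1095, 1089 and 1538 CPM, and Fscn2, an actin bundler, at 928, 1000 and 880 CPM. Replicate 3 was the highest for 20 and the lowest for 5 of the 25, against 57.5 and 30.7% over all genes at 5 CPM or more, and was at least 2-fold apart for 1. Under TMM scaling it was the highest for 19, against 46.1% over all genes.

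Of 16 photoreceptor transcription factors, Nr2e3 and Crx were the most abundant. Crx, the homeobox factor that photoreceptors of both kinds need, stood at 1589, 1545 and 1587 CPM, 1574 ± 24.7 (SD, n = 3). Its level per kilobase, 498 ± 7.82 CPM per kilobase, did not differ from the 489 ± 13.0 of Nr2e3 beyond their spread, and both lay above the 55.1 ± 6.05 of Nrl. Neurod1, a helix-loop-helix factor that maintains photoreceptors, stood at 829, 832 and 1277 CPM, Rorb, an orphan receptor upstream of Nrl, at 474, 410 and 384 CPM, and Samd11, a Polycomb component of rods, at 287, 348 and 569 CPM. Otx2, the factor upstream of Crx, stood at 249, 240 and 279 CPM, although an antisense gene overlaps it and these reads carry no strand. Thrb, whose product directs the medium-wavelength cone fate, stood at 262, 244 and 233 CPM, and the cone factor Rxrg at 22.6, 25.5 and 6.33 CPM.

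The ribbon synapse, by which photoreceptors release glutamate onto bipolar and horizontal cells, was represented by 26 genes at 0.952, 0.986 and 1.14% of counts. Cplx4, a complexin of photoreceptor ribbons, led at 2368, 2402 and 2751 CPM. Snap25, a membrane fusion protein, stood at 1256, 1345 and 1260 CPM, and Mpp4, a scaffold of the terminal, at 751, 791 and 923 CPM. Syt1, a calcium sensor of release in neurons, stood at 486, 475 and 653 CPM, and Cabp4, which tunes the calcium channel of the terminal, at 509, 556 and 494 CPM. Replicate 3 was the highest for 21 of 26 and the lowest for 4, or 20 and 6 under TMM scaling, where 46.1% of all genes at 5 CPM or more were highest in it. The median difference of the 25 members at 5 CPM or more was 0.39 log2 units, against 0.17 over all genes.

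The 7 genes of the retinoid cycle in photoreceptors took 0.604, 0.606 and 1.01%, or 0.605% without replicate 3, a difference that lay mainly in Rbp3. This gene encodes the retinoid carrier of the space between photoreceptors and pigment epithelium (chromosome 14, 33954003 to 33964219). It stood at 1702, 1682 and 5590 CPM, 3.30-fold higher in replicate 3, and its rank of 27 rests on that library. Rdh12, a retinol dehydrogenase of the inner segment, went the other way at 1648, 1612 and 1154 CPM. The related Dhrs3 stood at 1211, 1282 and 1579 CPM.

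Pumps and channels of the inner segment (12 genes) took 0.311, 0.337 and 0.439% of counts. Kcnv2, a potassium channel subunit that shapes the photovoltage, stood at 553, 528 and 516 CPM. Atp1b2, a beta subunit of the sodium pump, stood at 399, 429 and 738 CPM. Kcnv2 was thus close in the 3 libraries, while Atp1b2 was highest in replicate 3.

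Photoreceptors ferment much of their glucose to lactate, and the 22 genes of glycolysis and lactate transport took 3.8, 3.73 and 4.34% of counts. Pkm, pyruvate kinase, stood at 10432, 10414 and 10800 CPM (rank 7), Aldoa, an aldolase, at 7146, 6741 and 8545 CPM, and Eno1, an enolase, at 4904, 4740 and 5805 CPM. Ldha, the lactate dehydrogenase subunit that favours lactate, stood at 4856, 4931 and 5211 CPM, and Gapdh at 5358, 5099 and 4943 CPM. Exons of another gene overlap Pkm, Aldoa and Gapdh. Gpi1 stood at 969, 944 and 1370 CPM. Per kilobase Ldha was at 1510 ± 56.6 CPM per kilobase and the other subunit, Ldhb, at 149 ± 51.3. Replicate 3 was the highest for 17 and the lowest for 3 of the 22, and for 13 and 7 under TMM scaling. Over all genes at 5 CPM or more it was the highest for 57.5%, or 46.1% under TMM scaling, so the TMM count lies near the background.

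**Figure D2:**
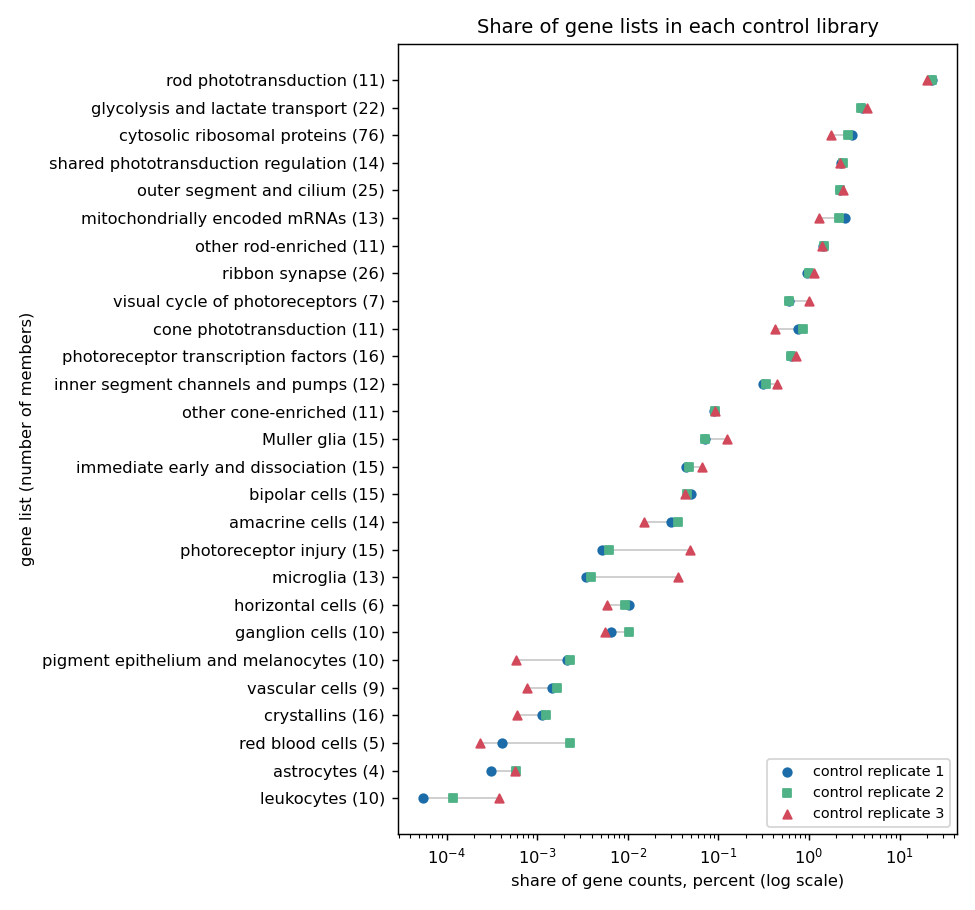
Percent of gene counts taken by each gene list in each control library, on a log axis, ordered by the mean share, with the number of members in brackets and a grey line over the range. Rod phototransduction leads in all 3 libraries, and replicate 3 is set apart for cone phototransduction, photoreceptor injury and microglia.

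Cone transcripts were present in every library, and 10 of the 11 cone phototransduction genes were lower in replicate 3. The 11 genes took 0.762, 0.853 and 0.416% of counts, 0.677 ± 0.230% (SD, n = 3) and 0.807% without replicate 3. The 95% Wilson intervals were 0.759 to 0.765, 0.850 to 0.856 and 0.414 to 0.418%, so counting error was small beside the gap. Replicate 3 was at least 2-fold below both others for 10 of 11, against 3.45% of all genes, and at least 2-fold above both for Gnb3, under each of the 5 library scalings tried. The median difference of the 11 was -1.90 log2 units.

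Opn1sw, the pigment of short-wavelength cones (chromosome 6, 29376671 to 29380513), stood at 2190, 3084 and 417 CPM, although the gene Calu overlaps it on the opposite strand. Opn1mw, the pigment of medium-wavelength cones (chromosome X, 74127466 to 74150756), stood at 841, 666 and 200 CPM. Replicate 3 was 6.33-fold below the mean of the others for the first and 3.77-fold for the second, and counts of Opn1sw were 2.60, 4.63 and 2.08 times those of Opn1mw. The short-wavelength pigment therefore exceeded the medium-wavelength one in all 3 libraries, by a factor that was not constant.

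Cone transducin followed the same order except for its beta subunit. The alpha subunit Gnat2 stood at 1086, 1027 and 201 CPM (5.25-fold lower in replicate 3), and the gamma subunit Gngt2 at 206, 198 and 33.7 CPM (6.00-fold lower), although the gene Abi3 overlaps it on the opposite strand. The beta subunit Gnb3, which ON bipolar cells also use, stood at 901, 1060 and 2675 CPM, 2.73-fold higher in replicate 3. The cone phosphodiesterase genes Pde6c (205, 196 and 58.9 CPM) and Pde6h (847, 780 and 116 CPM) were lower in replicate 3 by 3.41-fold and 7.00-fold. The gene Arhgdib overlaps Pde6h on the opposite strand. The channel subunits Cnga3 (29.5, 26.1 and 12 CPM) and Cngb3 (71.9, 66.1 and 16.7 CPM) were 2.30-fold and 4.14-fold lower. Cone arrestin, Arr3, stood at 1219, 1406 and 424 CPM, and the cone exchanger Slc24a2 at 20.8, 18.7 and 6.94 CPM. The low values of replicate 3 thus ran from pigment to exchanger, while Gnb3 alone was high.

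Paired with its rod counterpart, each cone gene stood at a small fraction of it. Summed over the lists and expressed per kilobase of exon, cone phototransduction was at 6.08, 6.86 and 3.72% of rod phototransduction, 5.55 ± 1.64% (SD, n = 3). Per kilobase of coding sequence the values were 4.03, 4.39 and 2.04%. Gnat2 was at 3.27, 3.06 and 0.541% of Gnat1 per kilobase of exon, and Pde6c at 12.5, 12.3 and 3.70% of Pde6b. Arr3 was at 12.9, 14.9 and 4.78% of Sag per kilobase of exon but at 3.62, 4.18 and 1.34% per kilobase of coding sequence, since the annotated exons of Sag cover 8904 bases and its coding sequence 1209. Pde6h was at 2.23, 2.12 and 0.403% of Pde6g on the first scale and at 7.92, 7.52 and 1.43% on the second. Gnb3 was the only one of the 9 pairs with its highest value in replicate 3, at 2.97, 3.54 and 9.79% of Gnb1. Pde6c was at 7.32, 7.21 and 2.18% of Pde6b per kilobase of coding sequence. Except for Gnat2 and Cngb3, the choice of length moved the mean percentage by more than the difference between replicates 1 and 2.

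**Figure D3:**
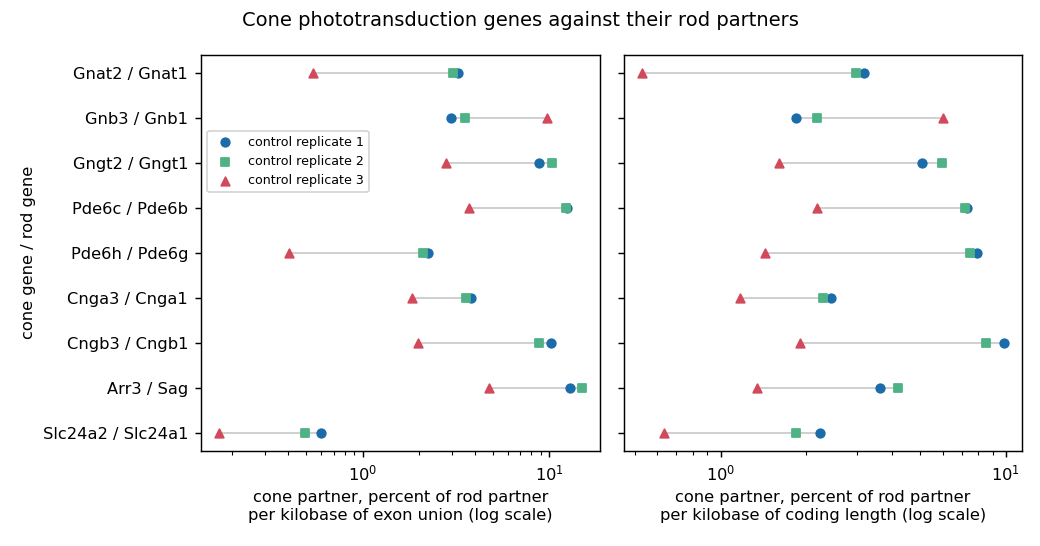
Level of each cone phototransduction gene as a percent of its rod counterpart, per kilobase of all annotated exons (left) and of coding sequence (right), on log axes with 1 point per control library. Replicate 3 is the lowest for 8 of the 9 pairs and the highest for Gnb3 over Gnb1 on both scales.

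Outside phototransduction, cone-enriched genes were split. Their 11 members took 0.0890, 0.0927 and 0.0925% of counts, and replicate 3 was lowest for 8 and highest for 2, against 30.7 and 57.5% of all genes at 5 CPM or more. Kcne2, a potassium channel subunit, stood at 137, 142 and 31.8 CPM, Ccdc136 at 53.1, 72.5 and 20.2 CPM, and Gulo at 43.8, 36.2 and 24.6 CPM. Pygm, the muscle form of glycogen phosphorylase, stood at 234, 271 and 483 CPM and Smug1, a DNA repair glycosylase, at 48.5, 49.1 and 91.1 CPM, both higher in replicate 3. With Thrb, whose level was close in all 3, these genes kept the summed share even while most members were lower.

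Beside the low cone values, replicate 3 had low values of mitochondrial and ribosomal transcripts. The 13 mitochondrially encoded messenger RNAs took 2.52, 2.16 and 1.27% of counts, 1.98 ± 0.640% (SD, n = 3) and 2.34% without replicate 3. All 12 that had any count were lowest in replicate 3, against 30.7% of all genes at 5 CPM or more, a level that 11 of them reached. Cytochrome b (CYTB) stood at 9350, 8073 and 5548 CPM, and COX1, a subunit of cytochrome oxidase, at 9777, 7952 and 3557 CPM. The complex I subunit ND1 stood at 2868, 2461 and 1489 CPM, ND5 at 1055, 1079 and 836 CPM and ND4 at 938, 886 and 680 CPM. The mitochondrial ribosomal RNA mt-Rnr2 followed at 5096, 4028 and 1744 CPM. The 76 cytosolic ribosomal protein genes took 2.98, 2.69 and 1.74% of counts, or 2.84% without replicate 3, all 76 were lowest in replicate 3, and 0 were at least 2-fold below both others, or 3 under TMM scaling. Rpl3 stood at 2243, 2136 and 1481 CPM and Rplp1 at 486, 420 and 226 CPM. The part of these differences in the cone values was not tested.

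Markers of other retinal cells were scarce. Summed over 11 lists and 111 genes, they took 0.175, 0.182 and 0.231% of counts, 0.196 ± 0.0303% (SD, n = 3), and 41 of the 111 reached a mean of 5 CPM. Replicate 3 was the lowest for 62 of the 111 and the highest for 28, so the lists differ in direction. Of the 41 at 5 CPM or more it was the lowest for 29 and the highest for 12, against 30.7 and 57.5% of all genes at that level.

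Bipolar cells, the next neurons in the pathway, were marked by 15 genes at 0.0499, 0.0446 and 0.0423%. Scgn, a calcium-binding protein of cone bipolar cells, stood at 53.5, 48.4 and 206 CPM, Prkca, the rod bipolar kinase, at 61.2, 56.9 and 75.1 CPM, and Cabp5 at 88.7, 66.5 and 23.3 CPM. Grik1, a glutamate receptor of OFF bipolar cells, stood at 73.8, 57.5 and 13.6 CPM. Replicate 3 was lowest for 11 of the 15 and highest for 3, so the like shares hide opposite values. Of the 12 at 5 CPM or more it was lowest for 10 and highest for 2, against 30.7 and 57.5% of all genes at that level. It was at least 2-fold below both others for 6 of the 12 and above both for 1, against 3.45 and 7.09% of all genes. The defining ON bipolar gene Grm6 stood at 2.48, 4.39 and 4.78 CPM.

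Amacrine markers (14 genes) took 0.0300, 0.0353 and 0.0149%, or 0.0327% without replicate 3, which was lowest for 12 and at least 2-fold below for 9. Of the 6 members at 5 CPM or more it was lowest for 6 and at least 2-fold below for 4, against 30.7 and 3.45% of all genes at that level. Slc6a9, the glycine transporter, stood at 113, 112 and 101 CPM, Calb2, calretinin, at 80.5, 129 and 21.8 CPM, Pax6 at 34.9, 40.6 and 6.04 CPM, and Gad1, which makes GABA, at 30.1, 35.0 and 9.04 CPM. Horizontal cell markers (6 genes) took 0.0102, 0.00938 and 0.00588% and ganglion cell markers (10 genes) 0.00648, 0.0102 and 0.00564%. Of the horizontal markers Prox1 stood at 21.2, 16.0 and 6.80 CPM, and Onecut1 was at most 0.262 CPM. Of the ganglion markers Nefl stood at 25.6, 35.3 and 11.0 CPM, while Pou4f2 was at 0, 0.265 and 0.0875 CPM. Most markers of inner retinal neurons were thus lower in replicate 3, as were the cone genes, and the part of other cells in the cone values was not tested.

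Müller glia, which span the retina, were marked by 15 genes at 0.0708, 0.0712 and 0.123%. The higher share of replicate 3 came from Clu, a secreted chaperone that other cells also make, at 315, 311 and 1024 CPM. That library was the highest for 3 of the 15, Clu among them, and the lowest for 10. Of the 10 members at 5 CPM or more it was the highest for 2 and the lowest for 8, against 57.5 and 30.7% of all genes at that level. Glul, glutamine synthetase, stood at 119, 124 and 66.6 CPM, Dkk3 at 122, 112 and 40.7 CPM, Rlbp1, a retinoid carrier of these glia, at 69.3, 94.7 and 41.0 CPM, and Aqp4, their water channel, at 11.8, 12.1 and 3.94 CPM. Apoe stood at 15.5, 11.3 and 24.1 CPM. Astrocyte markers (4 genes) took at most 0.000581%, with Gfap at 1.5, 2.89 and 4.2 CPM. Gfap, the intermediate filament that Müller glia raise in injured retina, was low in all 3.

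Pigment epithelium and melanocyte markers (10 genes) took 0.00212, 0.00232 and 0.00058%. Rpe65, the retinoid isomerase that defines the epithelium, was at 0, 0.0885 and 0 CPM. The melanin genes Dct and Pmel stood at 7.82, 6.64 and 0 CPM and at 5.03, 4.69 and 0.0583 CPM. The count of 0 for Dct in replicate 3 allows up to 0.0875 CPM, and Pmel was below that limit there.

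Microglia markers had the highest ratio of replicate 3 to the mean of the others among all lists, 9.88. The 13 genes took 0.00341, 0.00391 and 0.0362% of counts, 0.0145 ± 0.0188% (SD, n = 3) and 0.00366% without replicate 3. The 95% Wilson intervals were 0.00322 to 0.00362, 0.00371 to 0.00413 and 0.0356 to 0.0368%. All 13 were highest in replicate 3 and at least 2-fold above both others there. Of the 13, 7 reached a mean of 5 CPM, which includes replicate 3. All 7 were at least 2-fold above, against 7.09% of all genes at that level. Cx3cr1, Cd68 and Trem2 were below 5 CPM in both other libraries and reached it only through that library. C1qb, a chain of complement C1q (chromosome 4, 136880126 to 136886200), stood at 8.09, 10 and 101 CPM. The protease Ctss stood at 7.33, 8.91 and 85.0 CPM, the growth factor receptor Csf1r at 4.66, 5.90 and 41.2 CPM, the fractalkine receptor Cx3cr1 at 3.40, 2.01 and 34.2 CPM, and the lysosomal Cd68 at 2.51, 2.51 and 23.1 CPM. Trem2, a lipid receptor, stood at 0.613, 1.59 and 15.5 CPM. For each of these genes replicates 1 and 2 were both far below replicate 3, although they differed from each other for Trem2 and Cx3cr1.

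Of 10 leukocyte markers, none reached a mean of 5 CPM. Ptprc, the pan-leukocyte CD45 that microglia also express, stood at 0.306, 0.0885 and 3 CPM. The T cell genes Cd3e and Cd3d and the B cell gene Ms4a1 had no count in any library. Cd8a, a T cell gene, stood at 0.245, 1.03 and 0.437 CPM. Vascular markers (9 genes) took 0.00146, 0.00168 and 0.00077%, with Kdr, the endothelial growth factor receptor, at 6.01, 6.49 and 2.68 CPM and Cldn5, a tight junction protein, at 0, 0.206 and 0.0875 CPM.

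Genes that photoreceptors and glia express after injury were also high in replicate 3. The 15 genes of the injury list took 0.00520, 0.00616 and 0.0489% of counts, or 0.00568% without replicate 3. Replicate 3 was at least 2-fold above both others for 11. Of the 15, 8 reached a mean of 5 CPM, which includes replicate 3. It was at least 2-fold above both others for 7 of these 8, against 7.09% of all genes at that level. Edn2, Fgf2, A2m, Socs3, Bcl3 and Gadd45b reached it only through that library, their mean in the others being at most 3.99 CPM. Stat3 and Mt1 reached it without that library, so the count of 7 rests mostly on genes taken in through replicate 3. Edn2, the endothelin that damaged photoreceptors release (chromosome 4, 120161206 to 120167360), stood at 2.45, 5.28 and 141 CPM, 36.4-fold higher in replicate 3. Stat3, a mediator of cytokine signals, stood at 24.7, 26.5 and 115 CPM, A2m, a protease inhibitor, at 0.552, 0.855 and 92.6 CPM, and Fgf2, a survival factor of photoreceptors, at 3.43, 4.54 and 54.6 CPM. Exons of Nudt6 overlap those of Fgf2 on the opposite strand, and these reads carry no strand. Gadd45b, a stress-response gene, stood at 1.07, 1.65 and 23.7 CPM. Mt1, a metallothionein, went the other way at 14.7, 15.9 and 9.04 CPM. Microglia markers, at 0.0362% in replicate 3, and the injury list moved in the same library, and the part of either in the other was not tested.

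Immediate early genes, which cells switch on within minutes of stimulation and which enzymatic dissociation is known to induce, were low on the whole. The 15 genes took 0.0443, 0.0474 and 0.0651% of counts, most of it from Btg2 (271, 298 and 344 CPM) and Ier3 (135, 131 and 132 CPM). Egr1 stood at 2.79, 6.72 and 62.9 CPM, Fos at 8.86, 11.2 and 42.6 CPM, Nr4a1 at 5.76, 6.58 and 26.3 CPM and Atf3 at 6.01, 5.43 and 14.4 CPM. Jun, at 2.91, 2.63 and 3.24 CPM, and Dusp1, at 1.99, 1.86 and 2.30 CPM, were close in the 3 libraries. Replicate 3 was highest for 13 of the 15 and at least 2-fold above for 7, or highest for 12 under TMM scaling. Of the 6 members at 5 CPM or more it was highest for 5 and at least 2-fold above for 4, against 57.5 and 7.09% of all genes at that level. Egr1 reached that level only through replicate 3.

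**Figure D4:**
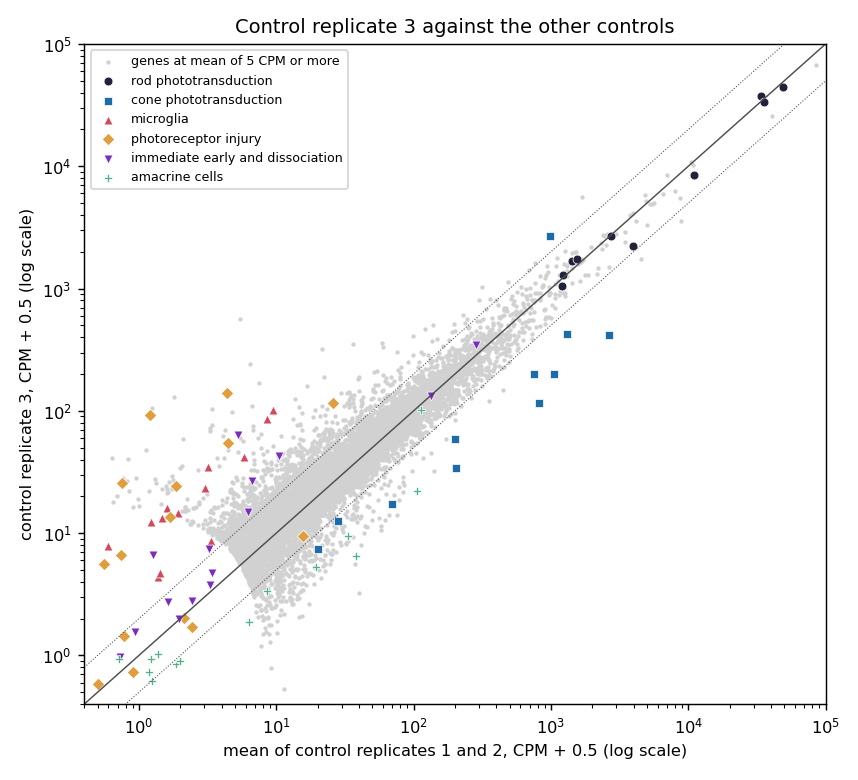
Level in control replicate 3 against the mean of control replicates 1 and 2 for each gene, as CPM + 0.5 on log axes, with the line of equal level solid and 2-fold lines dotted. Cone genes other than Gnb3 and several amacrine markers lie below the lower dotted line, microglia and most injury genes lie above the upper one, and rod phototransduction genes follow the line of equal level.

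The spread of the group as a whole rests on replicate 3. The common biological coefficient of variation estimated by edgeR was 0.344 over 15292 genes. It was 0.381 without replicate 1, 0.410 without replicate 2 and 0.153 without replicate 3, over 15617 to 15949 genes. The 10 widest spreads among genes at 20 CPM or more were all set by replicate 3, and 2 of them were unnamed transcripts. That mean includes replicate 3, and each gene of this set named here was below 20 CPM in both other libraries. The filter thus takes in genes that are high in 1 library alone. Pcolce, an enhancer of procollagen processing, stood at 4.72, 5.13 and 562 CPM, 114-fold higher in replicate 3, and shares exons with Fbxo24. Slc6a2, the noradrenaline transporter, stood at 0.368, 1.12 and 105 CPM, and E2f6, a repressor of the E2F family, at 7.17, 4.81 and 240 CPM. Agrn, a proteoglycan of synapses and basement membranes, stood at 2.33, 0.885 and 58.5 CPM, Nectin4, an adhesion protein, at 2.18, 3.63 and 75.5 CPM, and Cryzl2 at 2.88, 2.89 and 103 CPM. A2m and Edn2 complete the named ones.

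The most constant genes differed by a few CPM at levels above 100. Tmem50a stood at 318 CPM in each library, with an SD of 0.245. Exoc3, of the exocyst that tethers vesicles, stood at 139, 140 and 139 CPM, Ociad1 at 168, 167 and 167 CPM, Tecr, which elongates fatty acids, at 625, 629 and 632 CPM, and Zbtb38 at 292, 291 and 289 CPM. Usp10, a deubiquitinase, and Emc7, of a membrane protein insertase, stood at 155, 157 and 156 CPM and at 125, 127 and 126 CPM. Among genes of photoreceptor function, Stx3, the syntaxin of the ribbon synapse, at 301, 299 and 305 CPM, and Slc1a2, a glutamate transporter, at 251, 250 and 255 CPM, were in this set, as was Pla2g5, a phospholipase, at 187, 186 and 184 CPM.

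Transcript length and base composition moved with the difference of replicate 3. Of the 9608 genes, 9244 had a length and were divided by rank into 5 groups of nearly equal size. From the shortest to the longest group, the median log2 ratio of replicate 3 to the others was -0.15, 0.13, 0.22, 0.25 and 0.31. By GC content it was 0.05, 0.11, 0.16, 0.23 and 0.46. Replicate 3 was at least 2-fold above both others for 2.11% of genes in the group of lowest GC content and for 19.3% in the highest. Replicate 1 ran the opposite way, from -0.05 to -0.33 by GC content. Its ratio is taken against a mean that includes replicate 3, so a trend in replicate 3 enters it with reversed sign. The opposite order is thus no separate result. The median GC content of the cone phototransduction genes was 48.3% and their median transcript length 2518 bases, against 48.9% and 3413 over all genes. For ribosomal proteins these medians were 51.0% and 1100 bases, and for microglia markers at 5 CPM or more 52.9% and 1355. Rbp3 (55.7% GC, 5295 bases) and Gnb3 (56.9% GC, 1846 bases) lay in the group of highest GC content, and Gngt1 (36.7% GC) in the lowest. The part of length and GC content in the differences of these groups was not tested.

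**Figure D5:**
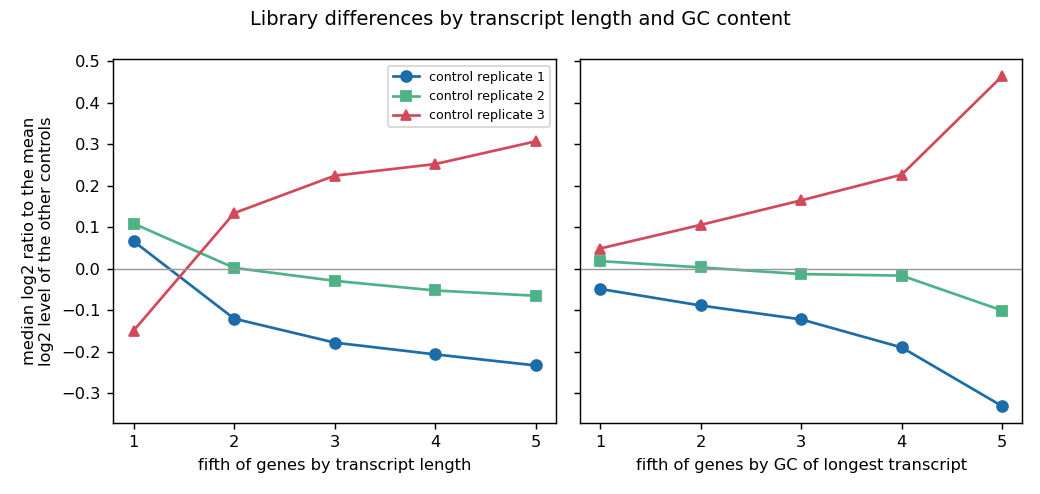
Median log2 ratio of each control library to the mean log2 level of the other controls, over 5 groups of the genes at 5 CPM or more, ranked by transcript length (left) and by GC content of the longest transcript (right). Replicate 3 climbs from -0.15 to 0.31 with length and from 0.05 to 0.46 with GC content. Replicate 1 runs the opposite way, in part because replicate 3 is among the controls it is set against.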

How the data were processed

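RNA of sorted photoreceptors from 3 control animals was sequenced, and the authors deposited a table of raw counts for each library, listing 49997 genes by symbol. Each table closes with 5 entries for reads with no gene. The submitters' processing notes name STAR 2.7.3a, HTSeq 0.12.4, DESeq2 1.42.0 and cutadapt, and GRCm38 (mm10) as the build. Which annotation was used, and whether counting used strand, is not given in the sources used here. The SMARTer Ultra Low kit named in the labels does not mark strand, so a gene and its antisense partner cannot be told apart. Reads with no gene made up 21.6 to 23.7% of each table (13.8 to 17.6% in no feature, 1.84 to 1.91% ambiguous, 4.23 to 6.00% aligned in several places) and were left out. Reads of near-identical genes can therefore be lost.

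Counts were divided by the total of gene counts to give CPM. Values are given per library or as mean ± SD over 3 libraries, which come from separate animals. The group has 1 condition, so nothing was tested between groups and no p-value is given. Counts over genes use those with a mean of at least 5 CPM over all 3 libraries, including the one compared. Log2 values add 0.5 CPM. Each library was compared in turn with the other 2 at a fold of 2. TMM factors and the common dispersion came from edgeR 4.0.16 (filterByExpr, min.count 10) in R 4.3.3, size factors from DESeq2 1.42.0, and the rest from Python 3.11.15. The dispersion step was tested on simulated data. The counts of every pair of libraries differed beyond sampling noise by a chi-square comparison (13.6 to 128 per degree of freedom). Lengths, GC content and overlaps come from GENCODE M21, and coordinates and promoter windows from RefSeq GRCm38.p6, to which all 49997 names matched.

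Members and the 26 gene lists were chosen with earlier results of these data known. The rule for named genes takes the 30 of highest mean level, up to 6 members of each list, the 10 of largest spread at 20 CPM or more and the 10 of smallest spread at 100 CPM or more, and genes named beyond it were chosen after their values were seen. Promoters were to be shown for up to 4 rod genes. Some genes under this rule are not reported here, although they count in shares and ranks. Alternatives were other library scalings, other filters, other gene lengths and each library left out in turn.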

Additional observations from a re-analysis of the deposited data

How the results depend on the processing

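No paired analysis was possible because 1 group is described and no comparison was made. Shares depend on the denominator. With the 50 most abundant genes left out of it but kept in the sums, the values are ratios rather than shares and must rise. The rod ratio was then 36.7%, the cone ratio 1.15% and the mitochondrial ratio 3.37%. The ratio was 0.328% for other-cell markers and 61.7% for the 30 most abundant genes. With entries that name no gene included, the rod share was 16.8%, that of other-cell markers 0.151% and that of the 30 genes 28.3%. The cone level was 3.49% of the rod level per kilobase of coding sequence and 3.07% with no length. The biological coefficient of variation was 0.484 with no filter and 0.312 at a mean of 5 CPM or more, and ranged from 0.153 to 0.410 with 1 library left out. The number of genes at least 2-fold apart from both other controls was 63, 17 and 1012 for replicates 1, 2 and 3 at a mean of 5 CPM. It was 6, 1 and 357 at 20 CPM, and 371, 189 and 2123 at 1 CPM. Of 433 named genes, 14 moved by their SD or more under TMM and 14 under DESeq2 scaling. These counts take in genes with no count in any library, whose SD and move are both 0. Leaving 1 of 3 libraries out cannot move a mean by more than its SD. The 12 genes counted with each library left out are therefore such genes without counts. Depth limits markers at or below 3 counts, 0.0875 to 0.0919 CPM, and 3 libraries limit every SD.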

Other observations

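Some gene groups that are no marker of a retinal neuron were read as well. Crystallins, the lens proteins of which some are also made in retina, took 0.00113, 0.00125 and 0.000598% of counts in replicates 1, 2 and 3. Of the 16 genes, 6 had no count in any library, and Cryab, a small heat shock protein found in many tissues, led at 10.1, 11.3 and 4.05 CPM. Haemoglobin transcripts were highest in replicate 2, with Hbb-bs at 1.35, 9.53 and 0.292 CPM and Hba-a1 at 1.26, 6.58 and 0.204 CPM. These near-identical globin copies can exchange reads. The 5 red blood cell genes took 0.000411, 0.00229 and 0.000233% of counts.

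By gene class, protein-coding genes took 92.2, 93.3 and 94.6% of gene counts and long non-coding RNAs 1.62, 1.71 and 1.75%. Malat1, the nuclear non-coding RNA, stood at 5063, 4912 and 3311 CPM. Lars2, the mitochondrial leucyl-tRNA synthetase encoded in the nucleus, had rank 11 at 8409, 7510 and 6294 CPM. Its annotated exons cover 11089 bases, against 3894 for its longest transcript. Its values fell from replicate 1 to 3, as those of Rn18s-rs5 did. The part of ribosomal RNA reads in the Lars2 counts was not tested. Counts in no annotated feature took 13.8, 15.3 and 17.6% of all counts.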
